A study of Arabidopsis thaliana with 22 samples.

Results

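The 3 genes HAM1 (AT2G45160), HAM2 (AT3G60630) and HAM3 (AT4G00150) form the HAM branch (HAIRY MERISTEM, also LOST MERISTEMS) of the GRAS family of plant transcription regulators. They were selected by locus, from a list drawn up with earlier results of these data known, and are 3 of the 27143 loci on the array. Each has 1 transcript model among the 31524 measured. In RefSeq's Arabidopsis annotation HAM1 lies on chromosome 2, HAM2 on chromosome 3 and HAM3 on chromosome 4.

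HAM proteins keep the cells of shoot and root meristems undifferentiated. They work as partners of WUSCHEL and other WOX homeodomain proteins. The messenger RNAs of HAM1, HAM2 and HAM3 are cut under the guidance of the microRNA miR171, which limits their level, whereas that of the more distant HAM4 lacks the miR171 site. SCL26, the gene mutated in these plants, is a GRAS gene of another branch.

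Expression was measured in Arabidopsis thaliana roots on 22 one-colour NimbleGen arrays designed on the TAIR10 genome. Epidermal or cortical cells marked by a GFP reporter, which both genotypes carried, were released as protoplasts and collected by fluorescence-activated sorting, and their RNA was amplified before labelling. Groups of 3 arrays were atscl26 epidermis KNO3, atscl26 cortex KNO3, atscl26 cortex KCl, Col0 epidermis KNO3, Col0 epidermis KCl and Col0 cortex KCl, and groups of 2 arrays were atscl26 epidermis KCl and Col0 cortex KNO3. Col0 is the wild type, atscl26 carries the mutation of SCL26 in that background, and KNO3 stands for 2 h on 5 mM KNO3. The control is named 5 mM KCl in the titles and source names, whereas the protocol has control plants moved to 0.1 mM KNO3. Likewise the seedlings are 12 days old in the source names and 9 days old in the protocol. Neither conflict could be settled, and the control is called KCl throughout. All groups had grown at 0.1 mM KNO3 with 30 mM sucrose. A sorted sample depends on where the GFP reporter is active, and the sources used here do not name the reporter lines.

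Some arrays stood apart or went against their labels. The median correlation with the other arrays was under 0.85 in 4 of 22 arrays (Col0 epidermis KCl replicate 2, Col0 epidermis KNO3 replicate 3, Col0 cortex KNO3 replicate 1 and atscl26 cortex KNO3 replicate 1). It lay between 0.852 and 0.921 in the others. The mean of 14 epidermis markers minus that of 4 cortex markers was nearer the other cell type's median in 8 arrays, 4 labelled epidermis and 4 labelled cortex, and these are called discordant below. SCL26 itself did not separate the genotypes: it lay between 7.66 and 9.11 in the atscl26 arrays, against 7.0 to 11.26 in the Col0 arrays (average difference -0.11 ± 0.44, SE, limma adjusted p = 0.949). No source says whether the array's probes lie outside the mutated part of SCL26, so these levels do not check the labels. The authors' deposited table of averages disagreed with the labels for 3 arrays. Its Col0 epidermis KCl average left out replicate 2 and held atscl26 epidermis KNO3 replicate 1, and its Col0 cortex KNO3 average also held atscl26 cortex KCl replicate 1. Both added arrays also stood in the averages of their own labelled groups. The groups used here are those of the labels.

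All 3 HAM genes were well expressed, and each varied over arrays less than most genes. HAM3 had the highest values, between 10.35 and 12.95 with a median of 11.92 (log2 expression, here and below), which put its mean at percentile 86.1 of all models. HAM1 ranged from 9.71 to 12.75 with a median of 11.35 (percentile 79.1), and HAM2 ranged from 10.02 to 12.00 with a median of 11.05 (percentile 77.1). Signals of different probes cannot be set against each other, so these percentiles do not rank the genes by transcript number. The SD over the 22 arrays was 0.78 for HAM1, 0.60 for HAM2 and 0.76 for HAM3, against a median of 0.87 over all models.

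HAM1 was 10.88, 11.83 and 12.10 in atscl26 epidermis under KNO3, against 12.75 and 10.55 under KCl. In atscl26 cortex it was 11.73, 9.93 and 10.82 under KNO3, against 12.06, 10.58 and 11.08 under KCl. Both pairs of mutant groups overlapped. In Col0 epidermis HAM1 was 10.59, 9.71 and 10.13 under KNO3, against 11.95, 11.44 and 11.74 under KCl. Here the KNO3 arrays were all below the KCl arrays. Col0 cortex gave 11.37 and 11.32 under KNO3, against 11.41, 12.11 and 11.22 under KCl, with overlap. The 8 group means ran from 10.14 ± 0.44 in Col0 epidermis KNO3 to 11.71 ± 0.26 in Col0 epidermis KCl (SD, n = 3 each), a spread of 1.57, and the next 3 below the highest were 11.65, 11.60 and 11.58.

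HAM2 was 10.51, 11.30 and 11.94 in atscl26 epidermis under KNO3, against 10.74 and 11.46 under KCl. In atscl26 cortex it was 12.00, 10.40 and 10.02 under KNO3, against 11.75, 10.76 and 10.97 under KCl. Neither pair separated, and the highest and lowest HAM2 values of all arrays both came from atscl26 cortex KNO3. In Col0 epidermis HAM2 was 10.57, 10.85 and 10.85 under KNO3, against 11.23, 10.44 and 11.12 under KCl. In Col0 cortex it was 10.09 and 11.19 under KNO3, against 11.61, 11.87 and 11.78 under KCl, so that both KNO3 arrays lay below the KCl arrays. HAM2 had the flattest profile of the 3 genes: its group means ran from 10.64 ± 0.78 in Col0 cortex KNO3 (n = 2) to 11.75 ± 0.13 in Col0 cortex KCl (SD, n = 3), a spread of 1.11.

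HAM3 was 11.49, 12.41 and 12.80 in atscl26 epidermis under KNO3, against 10.65 and 11.09 under KCl. The KNO3 arrays were all higher. In atscl26 cortex HAM3 was 11.97, 11.40 and 11.37 under KNO3, against 12.91, 11.95 and 11.69 under KCl, and the groups overlapped. Col0 epidermis gave 11.90, 10.35 and 12.18 under KNO3, against 12.29, 11.80 and 10.59 under KCl. Col0 cortex gave 12.44 and 12.95 under KNO3, against 12.56, 12.75 and 11.79 under KCl. Its 8 means had the widest spread of the 3 genes, 1.83, from 10.87 ± 0.31 in atscl26 epidermis KCl to 12.70 ± 0.36 in Col0 cortex KNO3 (SD, n = 2 each).

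In none of the 3 genes did any gap between neighbours in the order of the 8 means exceed the larger of their SDs, and the ranges of all neighbours overlapped. The widest such gap was 0.68 for HAM1, 0.50 for HAM2 and 0.61 for HAM3.

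**Figure D1:**
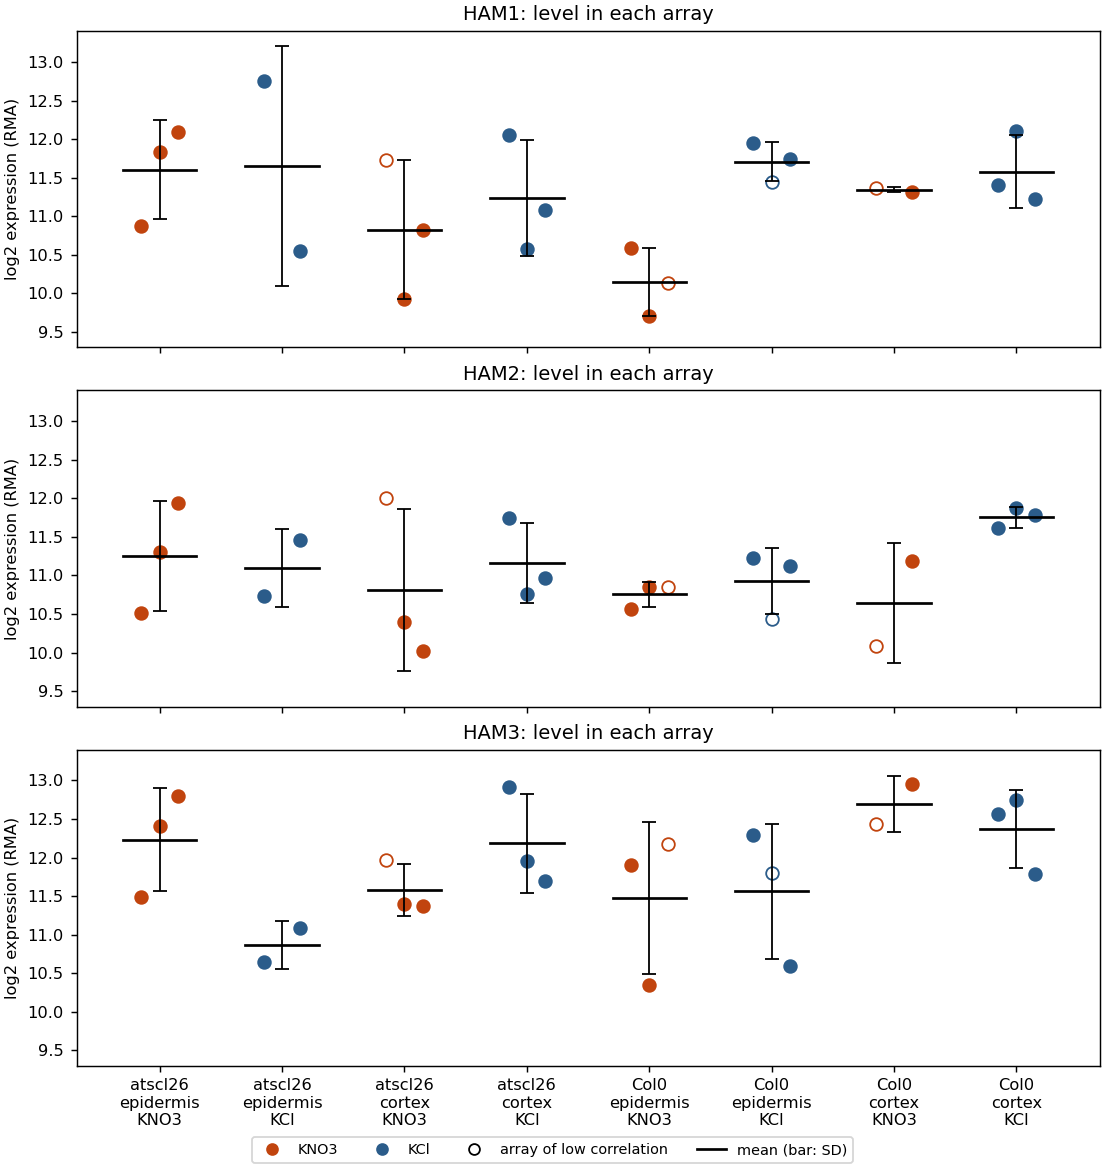
Log2 expression of HAM1, HAM2 and HAM3 in each array of the 8 groups. Points are arrays (open points are the 4 arrays of low correlation), lines are group means and bars are SDs; HAM1 in Col0 epidermis under KNO3, between 9.71 and 10.59, lies below the KCl arrays beside it.

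The first question of the design was how 2 h of nitrate affected each cell type and genotype. No HAM gene passed the test (limma, Benjamini-Hochberg adjusted p under 0.05) in any of the 4 nitrate comparisons, and neither did any other model (0% of models in each). The difference was -1.57 ± 0.58 for HAM1 in Col0 epidermis (SE; 95% interval -2.78 to -0.35, limma adjusted p = 0.909). It was -1.11 ± 0.58 for HAM2 in Col0 cortex (-2.32 to 0.10, limma adjusted p = 0.896) and 1.37 ± 0.62 for HAM3 in atscl26 epidermis (0.06 to 2.67, limma adjusted p = 1). These were the 3 nitrate contrasts of the 12 in which the KNO3 and KCl arrays did not overlap. Of all models, 2.23% were lower without overlap in Col0 epidermis, 9.67% were lower without overlap in Col0 cortex and 8.83% were higher without overlap in atscl26 epidermis. At an unadjusted p under 0.05 there were 1711 models in Col0 epidermis, 1601 in Col0 cortex, 1021 in atscl26 epidermis and 859 in atscl26 cortex. HAM1 in Col0 epidermis and HAM3 in atscl26 epidermis were among them.

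Marker levels moved beside these contrasts. Cortex markers averaged 8.39 (7.71 to 9.39 over arrays) in Col0 epidermis KNO3, against 10.37 (8.65 to 11.47) in Col0 epidermis KCl, while epidermis markers averaged 9.21 and 9.20. In atscl26 epidermis, cortex markers averaged 10.18 (8.43 to 11.58) under KNO3 and 8.15 (7.61 to 8.69) under KCl, and epidermis markers averaged 8.52 and 9.45. Endodermis markers averaged 7.87 (7.17 to 8.44) under KNO3 and 9.21 (7.04 to 11.48) under KCl in Col0 epidermis, and 8.53 (7.14 to 10.14) and 7.18 (6.99 to 7.36) in atscl26 epidermis. Meristem genes averaged 9.40 (8.82 to 10.15) under KNO3 and 8.23 (7.58 to 9.16) under KCl in Col0 epidermis, and 8.31 (7.99 to 8.77) and 9.47 (9.46 to 9.48) in atscl26 epidermis. HAM1 in Col0 epidermis and HAM3 in atscl26 epidermis thus had the sign of the cortex and endodermis markers. Their sign was opposite to that of the meristem genes. The other HAM genes lay nearer 0 beside the same markers. In Col0 epidermis HAM2 was at -0.18 ± 0.52 and HAM3 at -0.09 ± 0.55 (SE). In atscl26 epidermis HAM1 was at -0.05 ± 0.65 and HAM2 at 0.15 ± 0.58 (SE). In Col0 cortex, where HAM2 was lower under KNO3, endodermis markers averaged 8.92 (7.32 to 10.51) under KNO3 and 7.49 (7.21 to 7.89) under KCl, epidermis markers 8.53 and 8.08, and cortex markers 9.94 and 10.55. The part of these markers in the results was not tested. In bulk samples like these, fewer cells of a type and less RNA per cell cannot be told apart. Without the 8 discordant arrays HAM1 in Col0 epidermis was -1.59 and HAM3 in atscl26 epidermis was 0.63. That left 1 array in Col0 epidermis KCl and 1 in atscl26 epidermis KNO3 (replicate 1), each assumed to vary like the other groups. Without the 3 arrays on which the deposited averages and the labels disagree, that replicate 1 among them, these differences were -1.70 and 1.74. HAM2 in Col0 cortex was -0.56 without the arrays of low correlation and also without the discordant ones, since both sets hold Col0 cortex KNO3 replicate 1, at 10.09, and without replicate 2 it was -1.66.

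Averaged over genotypes and cell types, the nitrate difference was -0.57 ± 0.31 for HAM1, -0.37 ± 0.27 for HAM2 and 0.25 ± 0.29 for HAM3 (SE, limma adjusted p = 1 for each), against a median of 0.02 over all models. For HAM1 it was -0.29 without atscl26 epidermis KCl replicate 1. The intervals were -1.21 to 0.08 for HAM1, -0.95 to 0.20 for HAM2 and -0.37 to 0.87 for HAM3.

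The second question was whether the atscl26 mutation altered expression. None of the 3 genes passed in any of the 4 genotype comparisons, again with 0% of all models past the threshold. In epidermis under KNO3, HAM1 averaged 11.60 ± 0.64 in atscl26 and 10.14 ± 0.44 in Col0 (SD, n = 3 each), without overlap between the groups. The difference was 1.46 ± 0.58 (SE; 0.24 to 2.68, limma adjusted p = 0.928), and 5.57% of models were higher in atscl26 without overlap in this comparison. It uses the same 3 Col0 arrays as the nitrate contrast in Col0 epidermis. Without the discordant arrays it was 0.73, with 1 atscl26 array left. That array was replicate 1, which the authors' deposited average of Col0 epidermis KCl also held. Without the 3 arrays on which the deposited averages and the labels disagree, the difference was 1.82 ± 0.61 (SE). It was 1.45 without the arrays of low correlation. Epidermis markers averaged 8.52 and cortex markers 10.18 in the atscl26 arrays, against 9.21 and 8.39 in the Col0 arrays, and their part was not tested.

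In cortex under KNO3, HAM3 averaged 11.58 ± 0.34 in atscl26 (n = 3) and 12.70 ± 0.36 in Col0 (SD, n = 2). The difference was -1.12 ± 0.62 (SE; -2.42 to 0.19, limma adjusted p = 0.894), without overlap, as for 7.56% of models that were lower in atscl26. In the same arrays, epidermis markers averaged 9.65 (9.20 to 9.88) in atscl26 and 8.53 (7.69 to 9.38) in Col0, and cortex markers 9.77 and 9.94; their part was not tested. Under KCl the genotypes overlapped for all 3 genes in both cell types. There the differences lay between -0.70 ± 0.62 (HAM3 in epidermis) and 0.17 ± 0.58 (HAM2 in epidermis). Averaged over cell types and treatments, atscl26 minus Col0 was 0.13 ± 0.31 for HAM1, 0.06 ± 0.27 for HAM2 and -0.31 ± 0.29 for HAM3 (SE, limma adjusted p = 0.901, 0.952 and 0.806).

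The third question was whether the 2 cell types differed. In Col0 under KNO3, HAM1 averaged 10.14 ± 0.44 in epidermis (n = 3) and 11.35 ± 0.03 in cortex (SD, n = 2), a difference of -1.20 ± 0.65 (SE, limma adjusted p = 0.69). HAM3 averaged 11.48 ± 0.99 in epidermis and 12.70 ± 0.36 in cortex, a difference of -1.22 ± 0.62 (-2.52 to 0.08, limma adjusted p = 0.662), the smallest adjusted p of the HAM genes in all 18 comparisons. Without Col0 epidermis KNO3 replicate 2, where HAM3 was at 10.35, it was -0.65. Epidermis and cortex arrays did not overlap for either gene, as for 8.58% of models that were lower in epidermis, and 0% of models passed the threshold. In Col0 under KCl, HAM2 averaged 10.93 ± 0.43 in epidermis and 11.75 ± 0.13 in cortex (SD, n = 3 each). The difference was -0.82 ± 0.52 (SE, limma adjusted p = 0.845), without overlap, as for 4.99% of models. In atscl26 under KCl, HAM3 averaged 10.87 ± 0.31 in epidermis (n = 2) and 12.18 ± 0.65 in cortex (SD, n = 3). The difference was -1.31 ± 0.62 (SE; -2.62 to -0.01, limma adjusted p = 1), without overlap, as for 11.4% of models. In these arrays meristem genes averaged 9.47 in epidermis and 8.27 in cortex (8 of 9 higher in epidermis), cortex markers 8.15 and 9.84 (4 of 4 lower) and endodermis markers 7.18 and 8.02 (7 of 8 lower). In Col0 under KNO3, meristem genes averaged 9.40 in epidermis and 8.32 in cortex, cortex markers 8.39 and 9.94, and endodermis markers 7.87 and 8.92. In Col0 under KCl, epidermis markers averaged 9.20 in epidermis and 8.08 in cortex, cortex markers 10.37 and 10.55, and endodermis markers 9.21 and 7.49. Meristem genes there averaged 8.23 in epidermis and 8.43 in cortex, with 4 of 9 higher in epidermis. The part of all these markers in the HAM differences was not tested. In atscl26 under KNO3, all 3 genes overlapped, and their differences were 0.78 ± 0.58 for HAM1, 0.44 ± 0.52 for HAM2 and 0.65 ± 0.55 for HAM3. With discordant arrays left out, both groups had a single array and all 3 genes turned to the other sign, at -0.85, -1.49 and -0.47. The array left was replicate 1 in each group. Deposited averages and labels disagree on that epidermis array, and that cortex array was of low correlation. Without the arrays of low correlation the differences were 1.23, 1.04 and 0.85. Without the 3 arrays of disagreement they were 1.14, 0.81 and 1.03. Over all arrays of these 2 groups the markers ran against the labels. Of 14 epidermis markers, 12 were lower in the arrays labelled epidermis (mean 8.52, against 9.65 in those labelled cortex), and cortex markers averaged 10.18 and 9.77.

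Averaged over genotypes and treatments, epidermis minus cortex was 0.03 ± 0.31 for HAM1, -0.08 ± 0.27 for HAM2 and -0.67 ± 0.29 for HAM3. The interval for HAM3 was -1.29 to -0.05, with an unadjusted p of 0.0349 and an adjusted p of 0.809 in limma. In this comparison 1 of 31524 models passed (0.00317%), and 1892 models had an unadjusted p under 0.05. Without the discordant arrays the HAM3 difference was -1.32, and without the 4 arrays of low correlation it was -0.81. Both of these fits left at least 1 group with a single array. Without the 3 arrays on which the deposited averages and the labels disagree, the HAM3 difference was -0.52 ± 0.30 (SE, limma adjusted p = 0.659). With single arrays left out it lay between -0.76 and -0.53. The discordant arrays were picked by epidermis and cortex markers, so leaving them out sharpens the marker difference by construction.

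**Figure D2:**
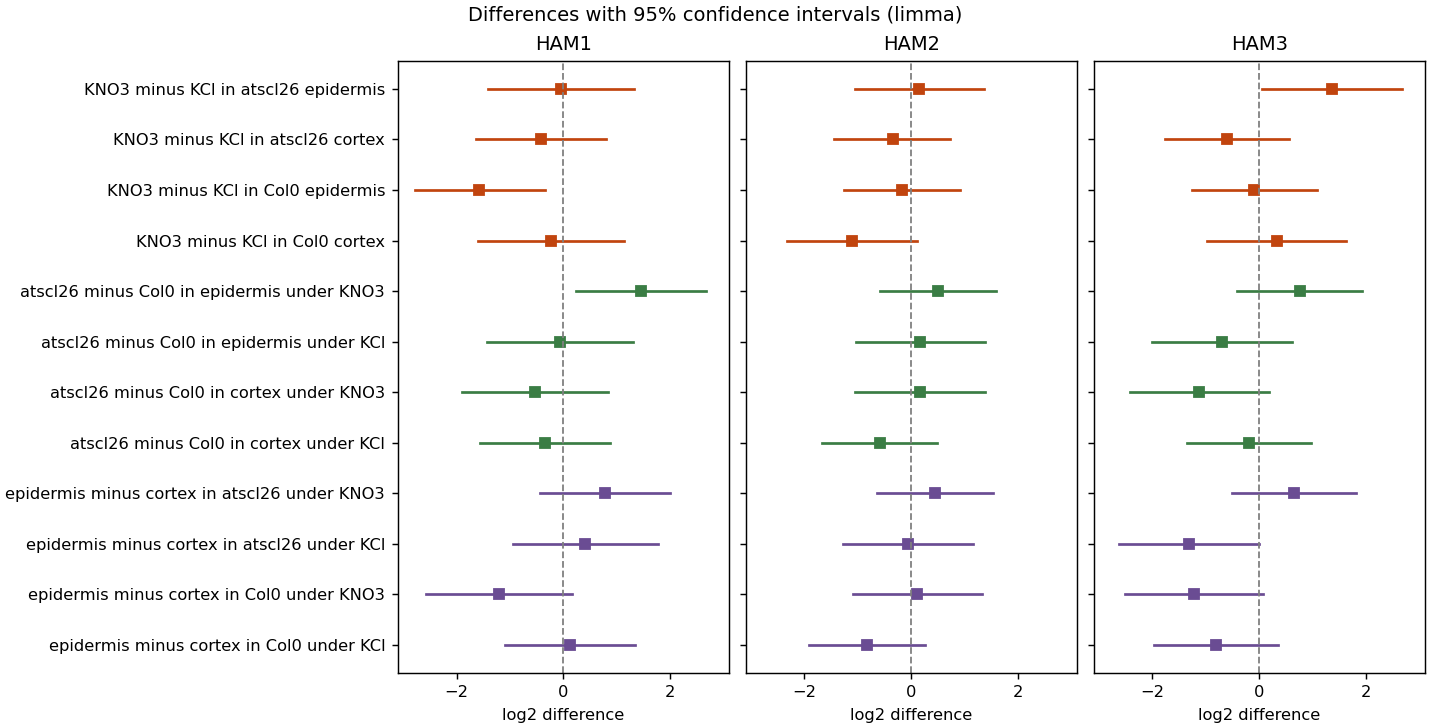
Log2 difference of each HAM gene in the 12 comparisons of single groups (squares) with its 95% confidence interval (limma); the dashed line marks 0. Of the 36 intervals, 32 contain 0, and no adjusted p was under 0.662.

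Over the 36 contrasts of single groups, 9 (25%) had groups that did not overlap and 4 (11.1%) had an unadjusted p under 0.05, against 14% and 4.47% over all models. These contrasts share arrays and are not independent. The genotype by nitrate interaction in epidermis, the nitrate difference in atscl26 minus that in Col0, was 1.52 ± 0.87 for HAM1, 0.33 ± 0.77 for HAM2 and 1.45 ± 0.83 for HAM3 (SE, limma adjusted p = 0.884, 1 and 0.884). Without the discordant arrays it was 0.82, -0.22 and -0.26. That left 1 array in Col0 epidermis KCl and 1 in atscl26 epidermis KNO3, the latter an array on which deposited averages and labels disagree. Without the arrays of low correlation the interaction was 1.65, 0.62 and 1.68. Without the 3 arrays of disagreement it was 2.02, 0.94 and 1.70. Without atscl26 epidermis KCl replicate 1 it was 2.62 for HAM1 and without replicate 2 of that group 0.42, and without Col0 epidermis KNO3 replicate 2 it was 0.89 for HAM3. In the same interaction 4 of 4 cortex markers (median 4.27) and 8 of 8 endodermis markers (median 2.83) had positive values and 8 of 9 meristem genes negative ones (median -2.12), and their part was not tested. In cortex it was -0.18 ± 0.87 for HAM1, 0.76 ± 0.77 for HAM2 and -0.93 ± 0.83 for HAM3 (limma adjusted p = 1 for each). The cell type by nitrate interaction in Col0 was -1.33 ± 0.87 for HAM1, 0.94 ± 0.77 for HAM2 and -0.41 ± 0.83 for HAM3 (limma adjusted p = 0.777, 0.777 and 0.875). In each of these 3 tests 0% of models passed.

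Over single arrays, HAM2 and HAM3 varied against the epidermis markers. HAM2 was low where the epidermis markers, genes such as WER and RHD6 that set the identity of root epidermal cells or form root hairs, were high. Over 22 arrays Pearson's r was -0.71 (permutation p = 0.00025, adjusted p = 0.00675 over 27 relations) and Spearman's rho was -0.74 (permutation p = 7e-05, adjusted p = 0.00189). Without the 2 arrays farthest from the median marker level r was -0.71. It was -0.81 within the 11 arrays labelled epidermis and -0.67 within the 11 labelled cortex, and -0.79 without the 4 arrays of low correlation. Of all models, 1.5% were at least as strongly correlated with these markers. HAM3 was also lower where epidermis markers were higher (r = -0.55, permutation adjusted p = 0.0321; rho = -0.62, adjusted p = 0.0148), with -0.34 within the arrays labelled epidermis and -0.76 within those labelled cortex. Without the 2 farthest arrays r for HAM3 was -0.42. Over all 22 arrays, 5.8% of models were at least as strongly correlated with these markers as HAM3. For HAM1, r was -0.35 (permutation adjusted p = 0.23). The permutations treat the arrays as exchangeable, although they fall into 8 groups.

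The cortex marker means fell on either side of 9, with 8 arrays between 7.61 and 8.69 and 14 between 9.39 and 11.58, so r was taken over all arrays and within each side of that gap, which was set after the values were seen. Over all 22 arrays HAM3 was higher where cortex markers were higher (r = 0.69, permutation adjusted p = 0.00715 over 27 relations; rho = 0.64, adjusted p = 0.0148). It was 0.59 without the 2 farthest arrays, 0.74 within the arrays labelled epidermis and 0.47 within those labelled cortex, and 2% of models were at least as strongly correlated. Within the sides r for HAM3 was 0.04 on the lower side (8 arrays, permutation p = 0.913) and 0.05 on the upper side (14 arrays, permutation p = 0.876). Without the 2 farthest arrays these were -0.84 and -0.19. Each side holds few arrays and only part of the marker range, so these values cannot show whether the relation holds within it. No array on the lower side had HAM3 above 11.90. For HAM1 r over all arrays was 0.47 (permutation adjusted p = 0.0839; rho = 0.57, adjusted p = 0.0258) and 0.31 without the 2 farthest arrays. It was 0.74 below the gap (permutation p = 0.0289, rho = 0.81) and 0.63 above it (permutation p = 0.015, rho = 0.59), and neither passed after adjustment over 6 relations (permutation adjusted p = 0.0867 for each). Without the 2 farthest arrays of each side these were 0.62 and 0.41. HAM2 gave 0.40 over all arrays (permutation adjusted p = 0.153), -0.53 below the gap and 0.34 above it (permutation adjusted p = 0.356 for each side).

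**Figure D3:**
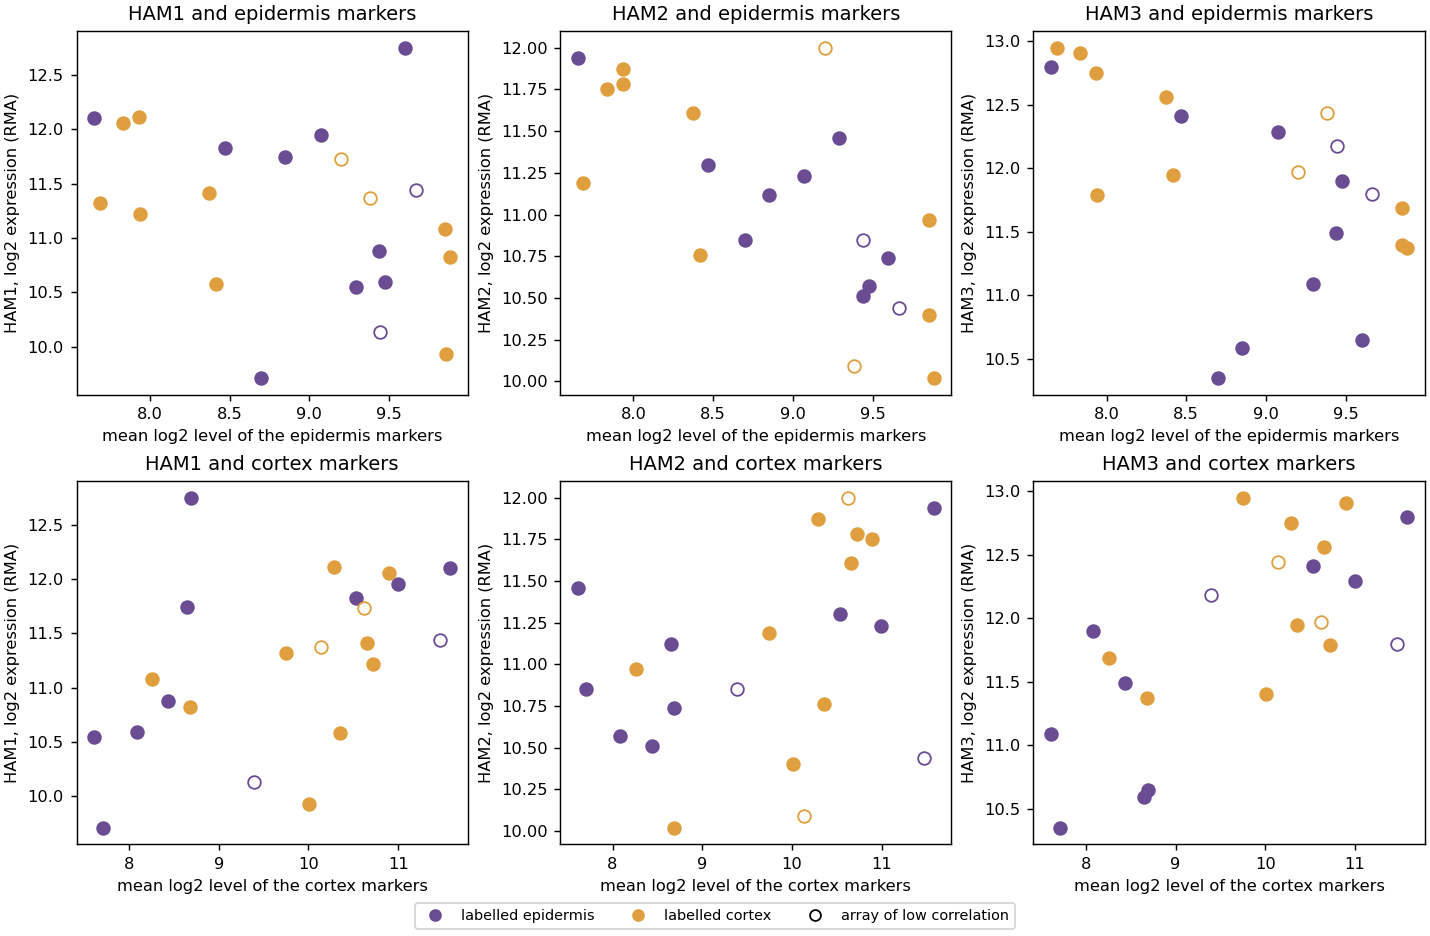
Log2 expression of each HAM gene (vertical) against the mean log2 level of 14 epidermis markers (upper row) or 4 cortex markers (lower row). Each point is 1 of 22 arrays, coloured by labelled cell type and open where its correlation with the others was low; HAM2 falls along the epidermis markers with r = -0.71.

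Between the HAM genes, Pearson's r over 22 arrays was 0.45 for HAM1 and HAM2, 0.35 for HAM1 and HAM3 and 0.40 for HAM2 and HAM3 (permutation adjusted p = 0.101, 0.112 and 0.101 over the 3 pairs). Spearman's rho was 0.47, 0.44 and 0.46 (permutation adjusted p = 0.0402 for each). Without the 2 arrays farthest from the median of the first gene of each pair, r was 0.41, 0.12 and 0.39. For HAM1 and HAM3 these arrays were Col0 epidermis KNO3 replicate 2 and atscl26 cortex KNO3 replicate 2. The r of HAM1 and HAM3 was 0.40 without the 4 arrays of low correlation and 0.43 on deviations from the group means. Within the 11 arrays labelled epidermis r was 0.29, 0.20 and 0.35, against 0.69, 0.74 and 0.47 within the 11 labelled cortex; the difference between the cell types was not tested. Without the 4 arrays of low correlation the pair of HAM1 and HAM2 gave 0.52 and that of HAM2 and HAM3 gave 0.55 (permutation adjusted p = 0.0408 for each).

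**Figure D4:**
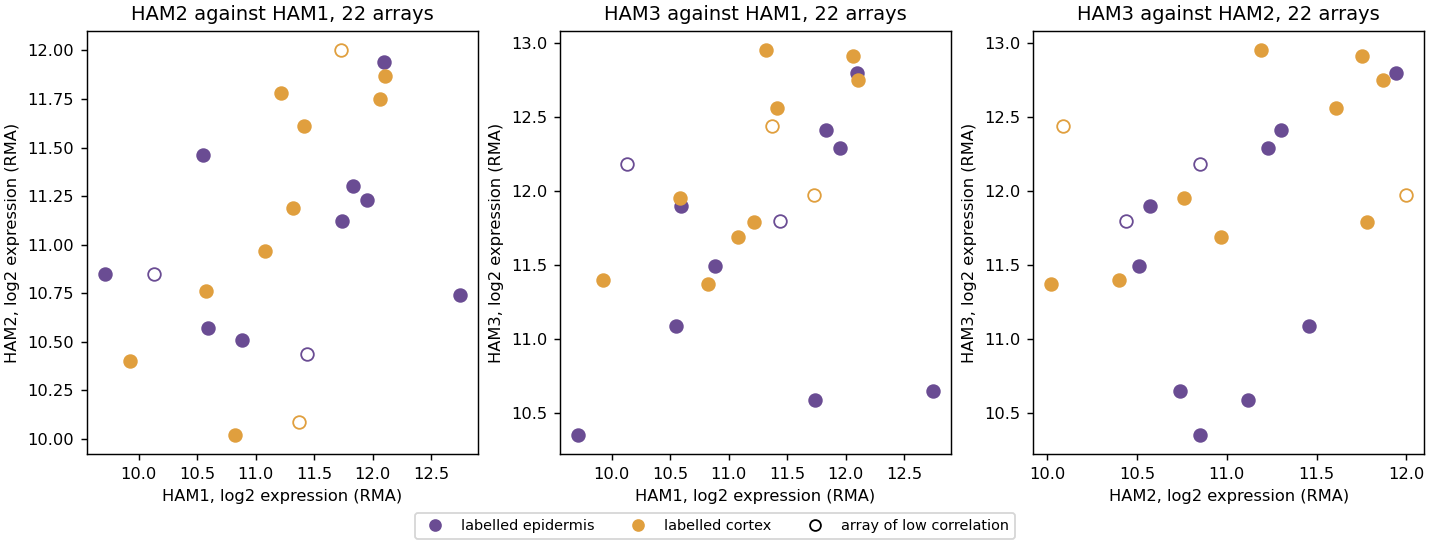
Log2 expression of the HAM genes against each other in the 22 arrays, coloured by labelled cell type and open for the arrays of low correlation. HAM1 at 12.75 with HAM3 at 10.65, in atscl26 epidermis KCl replicate 1, combines the highest HAM1 value with a low HAM3 value.

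The genes most like each HAM gene were ranked by Pearson's r over the 22 arrays among 31521 other models, as a description of these arrays with no test. For HAM1 the 5 highest were WIH2 (0.77), AT4G17280 (0.76), AT3G03170 (0.75), AT1G70280 (0.73) and AT5G62780 (0.72). For HAM2 they were AT5G45450 (0.81), UBC7 (0.79), a ubiquitin-conjugating enzyme, UGT71C1 (0.78), a glycosyltransferase, AT1G12050 (0.78) and AT1G49730 (0.77). For HAM3 they were PIP1A (0.86), an aquaporin of the plasma membrane, AT4G28650 (0.84), AGP4 (0.83), an arabinogalactan protein of the cell surface, ELP (0.83) and AT5G28300 (0.82). The HAM genes themselves were left out of this ranking. With the group means taken out, AT3G03170 came first for HAM1 (0.81) and AGP4 first for HAM3 (0.91), and AT5G45450 came second for HAM2 (0.86).

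Of the proteins that work with or under HAM, WOX5, which maintains the stem cells around the root's quiescent centre, had the widest range of the 7 measured, 6.96 to 13.23. In arrays of KNO3 it averaged 10.80 ± 2.72 in atscl26 epidermis, against 10.58 ± 0.89 in atscl26 cortex, and 7.90 ± 0.91 in Col0 epidermis (SD, n = 3 each), against 11.30 ± 2.73 in Col0 cortex (n = 2). Under KCl it averaged 7.36 ± 0.56 in atscl26 epidermis (n = 2), against 10.97 ± 2.56 in atscl26 cortex, and 9.08 ± 2.57 in Col0 epidermis, against 12.40 ± 0.93 in Col0 cortex (SD, n = 3 each). The average difference, epidermis minus cortex, was -2.53 ± 0.77 (SE, limma adjusted p = 0.777). WUS, the shoot stem cell regulator, had a median of 6.51, and CLV3, the shoot peptide gene that HAM and WUS control together, never exceeded 5.77 (percentile 0.1 of all models). WOX4, which acts in the vascular cambium, had a median of 7.89. SPL9 and SPL15, regulators of the change from juvenile to adult growth, had medians of 6.65 and 7.88. PORC, a chlorophyll synthesis gene repressed by HAM proteins, had a median of 6.74. None of these 7 genes passed in any of the 18 comparisons in either direction, and 5 of their 126 tests (3.97%) had an unadjusted p under 0.05, against 4.56% of all models over the same 18 comparisons.

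The level of miR171 itself could not be followed, since none of its 4 precursor genes is on the table. The 5 genes of the microRNA machinery were measured: DCL1, HYL1 and SE, which cut the precursors, HEN1, which protects the ends of the small RNA, and AGO1, which carries it. None passed in either direction, and 1 of 90 tests (1.11%) had an unadjusted p under 0.05, against 4.56% over all models. That was AGO1 in Col0 cortex, at -2.21 ± 0.87 for KNO3 minus KCl (SE, limma adjusted p = 0.896). HAM3 was lower where their mean level was higher (r = -0.56, permutation adjusted p = 0.0321; rho = -0.54, adjusted p = 0.0319), with -0.70 within the arrays labelled epidermis, -0.33 within those labelled cortex and -0.44 without the 2 farthest arrays. For HAM1 r was -0.14 and for HAM2 -0.12. Of all models, 16.5% were at least as strongly correlated with this list as HAM3.

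HAM4 (AT4G36710), the distant HAM gene, lay between 6.51 and 10.47 with a median of 7.64. Its average differences were 0.14 ± 0.49 for nitrate, -0.14 ± 0.49 for genotype and 0.10 ± 0.49 for cell type (SE, limma adjusted p = 1, 0.935 and 0.984). Of the 30 GRAS genes other than HAM1, HAM2 and HAM3, HAM4 included, none passed in either direction in any comparison, and 18 of 540 tests (3.33%) had an unadjusted p under 0.05, against 5 of 54 (9.26%) for the 3 HAM genes and 4.56% over all models. GAI, a DELLA repressor of gibberellin responses, had an average epidermis minus cortex difference of -0.75 ± 0.23 (SE, limma adjusted p = 0.777). RGA, another DELLA protein, was at -2.27 ± 0.67 for atscl26 minus Col0 in cortex under KNO3 (SE, limma adjusted p = 0.599), where HAM3 was at -1.12 ± 0.62. SCL11 was at 1.44 ± 0.54 for atscl26 minus Col0 in epidermis under KNO3 (limma adjusted p = 0.91), where HAM1 was at 1.46 ± 0.58. Of the 30 genes, 17 were higher and 13 lower in this comparison, and 5 were higher and 25 lower in that of RGA. In each of these comparisons 1 of the 30 had an unadjusted limma p under 0.05. PAT1, a phytochrome A signalling protein, was at -1.56 ± 0.71 for the average nitrate effect (limma adjusted p = 1).

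HAM3 followed the mean level of the other GRAS genes over arrays (r = 0.58, permutation adjusted p = 0.0321; rho = 0.62, adjusted p = 0.0148), with 0.45 within arrays labelled epidermis and 0.80 within those labelled cortex. For HAM1 r was 0.52 (permutation adjusted p = 0.0472; rho = 0.55, adjusted p = 0.0319), and for HAM2 it was 0.21. HAM3 ran against the mean of 9 meristem genes, such as the mitotic cyclin gene CYCB1;1 and the root stem cell regulator PLT1 (r = -0.57, permutation adjusted p = 0.0321; rho = -0.58, adjusted p = 0.0258). This was -0.60 within arrays labelled epidermis and -0.25 within those labelled cortex. Without the 2 farthest arrays the HAM3 values were 0.64 for the GRAS genes and -0.62 for the meristem genes, and HAM1 with the GRAS genes was 0.43. Models at least as strongly correlated with the GRAS mean made up 4.1% at the HAM3 value and 6.8% at the HAM1 value, and 4.8% with the meristem mean at the HAM3 value. HAM3 also followed the mean of the 7 partner genes (r = 0.60, permutation adjusted p = 0.0321; rho = 0.72, adjusted p = 0.00459), as strongly as 27.6% of all models did.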

How the data were processed

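The submitters deposited log2 expression values for each transcript model and array. Per the submitters' processing notes these come from RMA, and no version or settings of RMA were found in the sources used here. The authors' deposited log2 averages per group entered no test. Of 24 arrays made, the submitters dropped 2 of low quality after normalisation, per the series' design text. RMA pulls low intensities together, which can understate fold changes of dim genes. Members and gene lists were chosen with earlier results of these data known.

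The log2 values were used as deposited. limma 3.58.1 in R 4.3.3 fitted 1 mean per group to all 22 arrays (14 residual degrees of freedom), with eBayes and Benjamini-Hochberg adjustment over 31524 models within each of 18 comparisons. These were 12 of single groups, 3 averages and 3 interactions. Correlations were tested two-sided with 100000 permutations. The fit was tested on simulated data. Precision is limited by how few arrays each group has. The labels call the arrays biological replicates. Symbols came from RefSeq's table (26555 of 27143 loci matched), and no coordinates or sequences are used here. HAM genes were named in every comparison, partners and HAM4 in full, and of the other lists up to 2 genes with the smallest p per comparison, of which a few are given. Alternatives were a replicate block, quantile normalization, dim models left out, array weights, an intensity trend with a robust prior, only the groups compared, arrays left out in sets and arrays left out singly. Leaving out the 3 arrays on which the deposited tables disagree, the limit of 9 for the cortex markers, and the correlations on each side of it were chosen after seeing the data. Samples were not paired by replicate number in the main fit. Deviations of same-numbered arrays correlated above 0.1 in every pair in 2 of 12 comparisons. With so few arrays per group this does not settle whether they were paired.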

Additional observations from a re-analysis of the deposited data

How the results depend on the processing

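None of the 54 HAM differences passed the threshold in the fit of all arrays, and 22 kept their sign and stayed short of the threshold under every alternative and with each array left out. The block for the replicate number, dim models left out, the intensity trend and the fit of only the groups compared turned no sign and made no call. With the replicate block the smallest adjusted p of a HAM gene was 0.808. Deviations of same-numbered arrays correlated between -0.299 and 0.353, and 4 of 22 arrays matched their own number best. Where values turned, the cause was not tested.

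Quantile normalization turned 4 HAM2 values, to -0.03 for atscl26 minus Col0 in epidermis under KCl, 0 for atscl26 minus Col0 in cortex under KNO3, -0.06 for epidermis minus cortex in Col0 under KNO3 and -0.05 for the average genotype effect. Array weights, from a fit that had not converged (weights 0.081 to 8.71), brought HAM2 in atscl26 cortex to -1.22 for KNO3 minus KCl (limma adjusted p = 0.0457) and HAM3 in Col0 under KCl to -1.64 for epidermis minus cortex (limma adjusted p = 0.0234), both past the threshold. They turned HAM1 to 0.12 (nitrate, atscl26 epidermis), 0.13 (genotype, cortex KCl) and -0.20 (cell type, atscl26 KCl). They turned HAM2 to -0.02 (genotype, epidermis KCl), -0.27 (genotype, cortex KNO3) and -0.07 (genotype by nitrate, cortex). They turned HAM3 to 0.53 (nitrate, Col0 epidermis), 0.07 and 0.26 (genotype under KCl, epidermis and cortex), 0.03 (average genotype) and 0.27 (cell type by nitrate).

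Without the 4 arrays of low correlation, HAM2 turned to -0.08 (genotype, epidermis KCl), -0.98 (genotype, cortex KNO3), -0.48 (cell type, Col0 KNO3), -0.28 (average genotype) and -0.39 (genotype by nitrate, cortex), and HAM1 to -0.01 (average genotype). Without the 8 discordant arrays, HAM1 turned to 0.41 (nitrate, atscl26 cortex), 0.40 (genotype, cortex KNO3), -0.85 (cell type, atscl26 KNO3), -0.39 (average cell type) and 0.66 (genotype by nitrate, cortex). HAM2 turned to -0.59 and 0.75 (nitrate in atscl26, epidermis and cortex), -0.24 and -0.02 (genotype in epidermis, KNO3 and KCl), -1.49 and -0.44 (cell type under KNO3, atscl26 and Col0) and -0.22 (genotype by nitrate, epidermis). HAM3 turned to 0.88 (nitrate, Col0 epidermis), 0.28 and 0.06 (genotype under KCl, epidermis and cortex), -0.47 (cell type, atscl26 KNO3), -0.26 (genotype by nitrate, epidermis) and 0.30 (cell type by nitrate). Without the 3 arrays on which the deposited tables disagree, HAM1 turned to 0.32 (nitrate, atscl26 epidermis) and 0.22 (genotype by nitrate, cortex), HAM2 to -0.08 (genotype, epidermis KCl), 0.23 (cell type, atscl26 KCl) and 0.15 (average cell type), and HAM3 to 0.03 (nitrate, Col0 epidermis).

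With each array left out in turn no HAM gene passed. The sign of HAM1 turned in ranges of -1.16 to 1.04 (genotype, epidermis KCl), -0.25 to 0.31 (average cell type), -0.14 to 0.41 (average genotype), -0.69 to 1.51 (cell type, atscl26 KCl), -0.05 to 0.40 (cell type, Col0 KCl), -0.64 to 0.26 (genotype by nitrate, cortex), -0.87 to 0.03 (nitrate, atscl26 cortex), -1.15 to 1.06 (nitrate, atscl26 epidermis) and -0.41 to 0.03 (nitrate, Col0 cortex). The sign of HAM2 turned in ranges of -0.43 to 0.72 (genotype, cortex KNO3), -0.19 to 0.53 (genotype, epidermis KCl), -0.22 to 0.07 (average cell type), -0.09 to 0.20 (average genotype), -0.42 to 0.29 (cell type, atscl26 KCl), -0.44 to 0.67 (cell type, Col0 KNO3), -0.03 to 0.70 (genotype by nitrate, epidermis), -0.95 to 0.04 (nitrate, atscl26 cortex) and -0.20 to 0.52 (nitrate, atscl26 epidermis). The sign of HAM3 turned in ranges of -0.55 to 0.06 (genotype, cortex KCl), -0.90 to 0.15 (cell type by nitrate) and -0.57 to 0.48 (nitrate, Col0 epidermis).

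The count of all models past the threshold, 0 or 1 per comparison, reached 3486 with array weights (epidermis minus cortex in Col0 under KCl), 1049 without the discordant arrays (average cell type), 884 with single arrays left out (nitrate in Col0 cortex without Col0 cortex KNO3 replicate 2), 44 without the arrays of low correlation, 3 without the arrays of disagreement and 2 with quantile normalization. The groups of 2 or 3 arrays and the wide intervals limit what could be called.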

Other observations

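In the authors' deposited table of averages, whose header names the line atscl26-2, 6 of 8 columns equalled the group means of the labelled arrays to within 1e-08. For Col0 epidermis KCl that table gave 11.52 for HAM1, 10.96 for HAM2 and 11.46 for HAM3, where the labelled arrays averaged 11.71, 10.93 and 11.56. For Col0 cortex KNO3 it gave 11.58 for HAM1, 11.01 for HAM2 and 12.77 for HAM3, where the labelled arrays averaged 11.35, 10.64 and 12.70. From the authors' deposited table the KNO3 minus KCl difference in Col0 epidermis would be -1.38 for HAM1, and that in Col0 cortex would be -0.74 for HAM2 and 0.005 for HAM1.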
